A study of Homo sapiens with 12 samples.

Results

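MAVER1 is an established mantle cell lymphoma (MCL) cell line that the study describes as resistant to ibrutinib, with inactivated ATM. Its 4 RNA-seq libraries were compared with the 4 libraries of JEKO1 and the 4 of JVM2, both also MCL lines, out of 12 libraries in all. In each line, 1 library came from untreated cells (Ctrl), 1 from cells given ironomycin (Irono), 1 from cells given ibrutinib (Ibru) and 1 from cells given both drugs (Irono+Ibru), all at 48 h. Ironomycin is a small molecule known to hold iron in lysosomes, and ibrutinib inhibits BTK, a kinase downstream of the B-cell receptor (BCR). MAVER1 and JVM2 received 250 nM ironomycin and JEKO1 received 50 nM. Ibrutinib was used at 6.25 µM in MAVER1, 1.5 µM in JVM2 and 0.5 µM in JEKO1. In treated libraries dose and line cannot be told apart, except between the Irono libraries of MAVER1 and JVM2, which had the same dose. The Ctrl libraries carry no drug. MAVER1 and JEKO1 were grown with 20% fetal calf serum and JVM2 with 10%, so medium also separates MAVER1 from JVM2. Each line is 1 cell line with 1 library per treatment, and p-values therefore measure the spread among the libraries of these lines after removal of a shared treatment effect, not the spread among MCL tumors.

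MCL arises from mature B cells and is driven in most cases by cyclin D1, which is placed under an immunoglobulin enhancer by a translocation between chromosomes 11 and 14. Survival of these cells depends on signals from the B-cell receptor, on NF-κB transcription factors fed by that receptor or by TNF-family receptors, and on the balance between anti-apoptotic BCL2 and the BH3-only proteins that oppose it. Lines from different tumors also carry their own immunoglobulin rearrangement, which serves as a signature of the clone.

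The 12 libraries held between 35448523 and 38630809 counted reads, and those of MAVER1 between 38081238 and 38630809. MAVER1 libraries correlated with each other at r = 0.98 to 0.99 across genes (log2 CPM, 6 pairs), with JEKO1 at 0.87 to 0.88 and with JVM2 at 0.79 to 0.81. The B-cell markers matched the label, since all 10 B-cell markers examined reached 1 CPM (counts per 1000000 reads after TMM scaling) in the 4 MAVER1 libraries. Of 10 MCL markers, 8 did so in MAVER1 and 8 in JEKO1, but only 4 in JVM2, in which SOX11 had 0 reads and CD5 stayed at or below 0.055 CPM. Of markers of other cell types, CD3D, CD2, CD8B, KLRD1 and GZMB of the T and NK markers, FCGR3A, S100A8 and MRC1 of the myeloid markers and HBB, GYPB and AHSP of the erythroid markers had 0 reads in the 4 MAVER1 libraries. Some members were detected, as TRBC2 (55.6 to 172 CPM, with 46.8 to 116 CPM in JEKO1), PRF1 (19.9 to 22.9 CPM), EPOR (6.92 to 11.2 CPM) and ITGAM (2.52 to 3.56 CPM), and the 14 T and NK markers summed to 76.2 to 196 CPM in MAVER1, 116 to 175 CPM in JEKO1 and 26.4 to 35.1 CPM in JVM2.

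A gene was counted as part of the MAVER1 profile when 2 conditions held. It had to be called in the same direction against JEKO1 and against JVM2 (edgeR adjusted p below 0.05 and a fitted difference of 1 log2 unit or more, over all 18084 genes tested), and its log2 CPM in MAVER1 had to lie at least 1 beyond both other lines in each of the 4 treatments. Against the mean of JEKO1 and JVM2, 5490 genes were called, which is 30.4% of those tested, with 2673 higher and 2817 lower in MAVER1. Against JEKO1 alone 6092 genes (33.7%) were called and against JVM2 alone 7162 (39.6%). In the same direction against both, 1033 were higher (5.71%) and 1271 lower (7.03%). The full rule left 658 genes higher (3.64% of those tested) and 713 lower (3.94%) in MAVER1 under every treatment. For these genes, the fold changes, p-values and separation from the other lines given below restate the rule and are no further evidence. The same rule applied to the other lines gave 1389 higher and 905 lower genes for JEKO1 and 1987 and 1552 for JVM2. MAVER1 was the line with the fewest genes of its own in both directions.

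**Figure D1:**
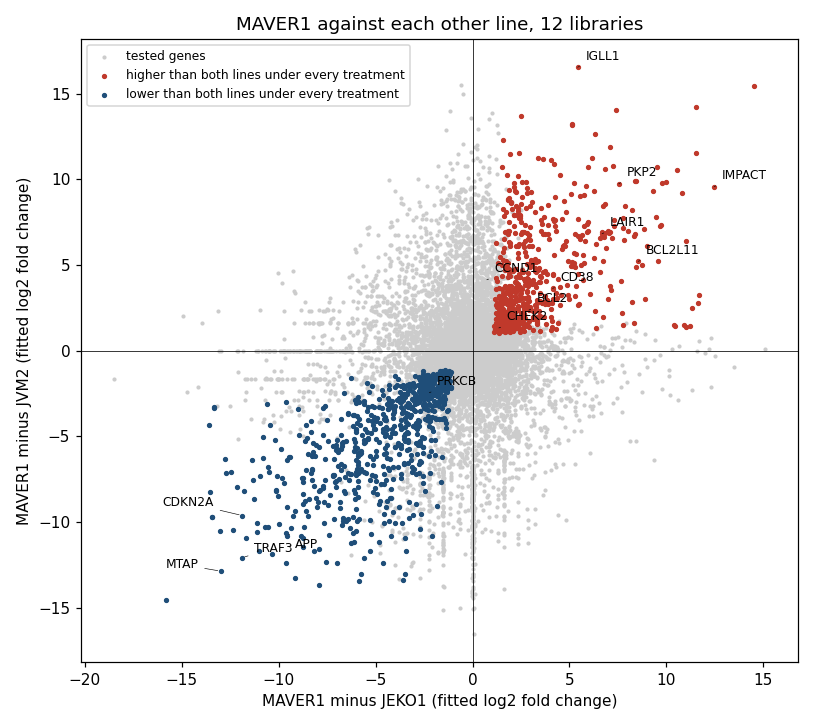
Each point is 1 of the tested genes, placed by its fitted log2 fold change of MAVER1 against JEKO1 (horizontal) and against JVM2 (vertical). Red points are the genes higher than both lines under every treatment and blue points those lower, with Y-linked genes and XIST left out of the plot; CCND1 lies outside the coloured sets because MAVER1 did not differ from both lines in the same direction by the required size.

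Starting from the Ctrl libraries, where no drug was present, MAVER1 stood at least 1 log2 unit above both other lines for 1116 genes and below both for 1370. In the 9 treated libraries, which played no part in that choice, 830 of the 1116 (74.4%) were called higher against both lines and 968 of the 1370 (70.7%) lower. Among all 18310 genes tested in the treated libraries, 5.71% were called higher and 6.72% lower. The treated libraries came from the same lines as the Ctrl libraries. Line differences were therefore likely to recur, and these shares are a description rather than an independent check. A gap of at least 1 was kept in all 3 treated sets by 658 of the 1116 higher and by 714 of the 1370 lower genes, and in none of the 3 by 131 and 190. At the edge of the rule, the smallest per-treatment gap inside was 1.0002 and the largest outside 0.9993 on the log2 scale for lower genes (1.0001 and 0.9988 for higher genes), and 375 higher and 558 lower genes that were called against both lines missed the gap in at least 1 treatment.

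The lower genes held many transcripts that were close to absent in MAVER1. In 103 of the 713 no read was counted in any of the 4 MAVER1 libraries, and in 256 no MAVER1 library had more than 3 reads. Under a stricter condition, over 8 libraries in place of 4, 18 of the 658 higher genes had 0 reads in all 8 JEKO1 and JVM2 libraries and 63 had at most 3 reads in each. Genes this low passed the filter on low counts only through the line or lines where they were high. Their share among all tested genes was not counted. Protein-coding genes made up 73.3% of the higher and 75.04% of the lower genes, against 74.8% of all genes tested.

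TRAF3, an adaptor that restrains the non-canonical NF-κB pathway by directing the kinase NIK to degradation, had the largest Ctrl gap among the lower protein-coding genes. It had 1, 1, 2 and 1 reads in the Ctrl, Irono, Ibru and Irono+Ibru libraries of MAVER1. In the same order its level was 164, 142, 143 and 116 CPM in JEKO1 and 147, 155, 165 and 172 CPM in JVM2. All 4 MAVER1 libraries lay below all 8 others, and the pooled rate of JEKO1, the nearer line, was 4173 times that of MAVER1 (exact 95% interval 1788 to 12853, counting error only). CDC42BPB, a kinase that acts on the actomyosin cytoskeleton, had 0, 0, 3 and 1 reads in MAVER1 but 39.0 to 58.0 CPM in JEKO1 and 32.5 to 40.5 CPM in JVM2. Between TRAF3 and CDC42BPB among the tested genes of chromosome 14 lies AMN, which is part of the receptor complex for vitamin B12 uptake. AMN had 1 read in all 4 MAVER1 libraries together, 56.5 to 80.1 CPM in JEKO1 and 1.21 to 1.67 CPM in JVM2. RCOR1, the tested gene before this run, was present in MAVER1 at 31.1 to 35.9 CPM. The gene after it, TNFAIP2, was low in MAVER1 (0.747 to 3.04 CPM) and in JEKO1 (0.660 to 5.54 CPM) against 61.0 to 109 CPM in JVM2, and EIF5-DT, the next, did not exceed 0.658 CPM in any line. EIF5 followed at 274 to 364 CPM in MAVER1.

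A second set of neighbours with few or no reads in MAVER1 lay on chromosome 9. MTAP, the enzyme that salvages methylthioadenosine into the methionine cycle, had 0 reads in every MAVER1 library. It stood at 26.6, 27.3, 27.0 and 25.4 CPM in JEKO1 and at 25.1, 24.1, 25.04 and 23.7 CPM in JVM2, so its level was at least 1210-fold lower in MAVER1 (against a floor of 3 reads over the 4 libraries). The adjacent CDKN2A encodes the CDK4 and CDK6 inhibitor p16 and the MDM2 inhibitor ARF, the pair of tumor suppressors of this locus. It had 1, 1, 2 and 0 reads in MAVER1, 133, 103, 127 and 89.4 CPM in JEKO1 and 32.4, 20.4, 25.5 and 17.5 CPM in JVM2. CDKN2B, which encodes the related inhibitor p15, also had 0 reads in MAVER1, although its level was low in the other lines too, at 0.482 to 1.55 CPM in JEKO1 and 0.0555 to 0.113 CPM in JVM2. The pseudogene TUBB8P1 and the antisense transcript CDKN2B-AS1 completed the set with 0 reads in MAVER1. Whether the counting used strand is not given in the sources used here, so reads of an antisense transcript and of the gene it overlaps may not be separated. On either side, KLHL9 (23.6 to 31.0 CPM) and CAAP1 (16.1 to 19.8 CPM) were present in MAVER1. ELAVL2, next to CDKN2B, was at 0 CPM in MAVER1 and in JEKO1 but at 6.30 to 7.04 CPM in JVM2.

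Zinc finger genes of chromosome 19 formed runs in both directions. Of 1127 placed genes on the chromosome, 62 were higher (5.50%) and 44 lower (3.90%), against 3.57% and 4.04% of all placed genes. ZNF700, a KRAB zinc finger gene, had 1, 0, 0 and 0 reads in MAVER1 against 9.23 to 11.9 CPM in JEKO1 and 10.5 to 11.8 CPM in JVM2. ZNF763, ZNF433 and ZNF878 had 0 reads in MAVER1, and ZNF433-AS1 had 1. Other zinc finger neighbours were higher in MAVER1, as ZNF582 and ZNF583, ZNF773, ZNF549, ZNF550, ZNF416 and ZIK1, and ZNF497 and ZNF837, with Ctrl gaps of 1.27 to 1.98 log2 units. In total, 44 runs of at least 3 neighbouring tested genes met the rule in a single direction, 28 higher and 16 lower, and they held 160 of the MAVER1 genes among 15838 genes whose order could be placed. Runs were found by gene order alone and no test was applied to them.

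**Figure D2:**
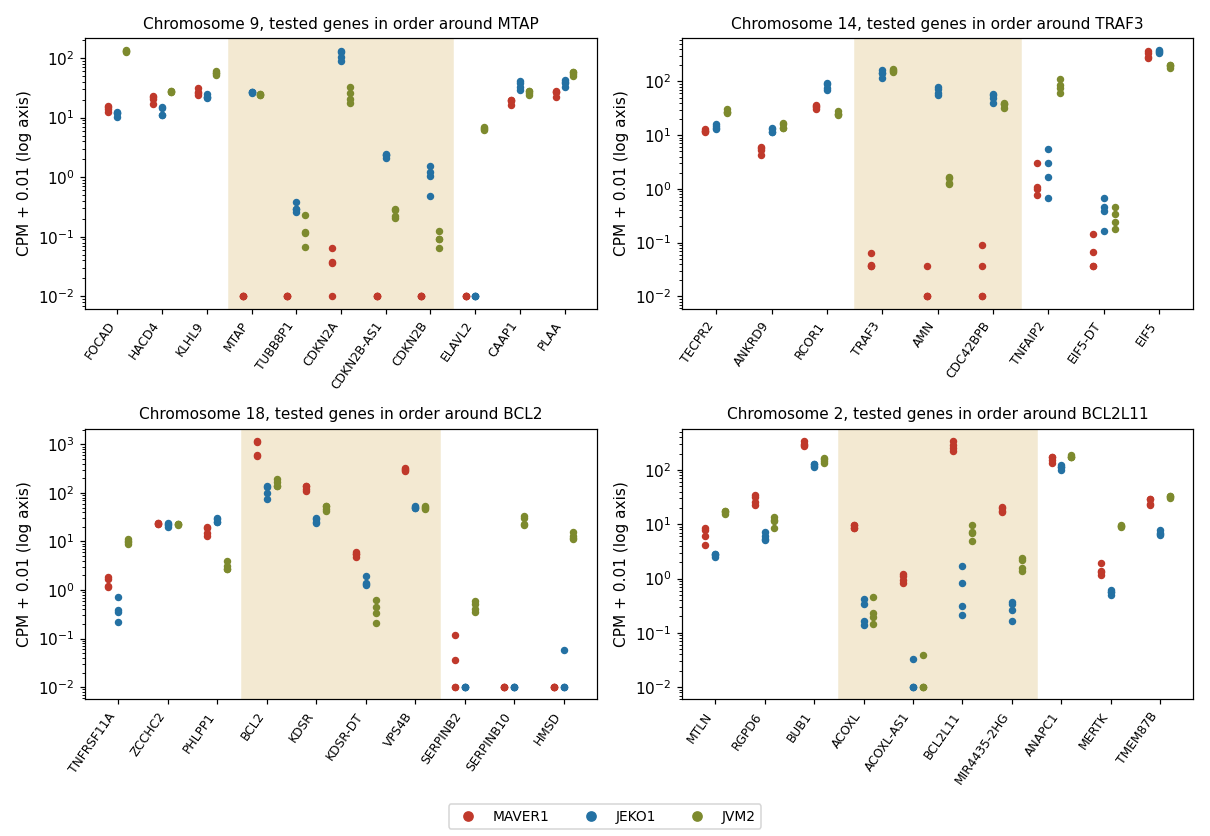
CPM plus 0.01 (log axis) of each of the 4 libraries per line for tested genes in chromosome order, with the run that met the rule shaded and 3 tested genes shown on either side. MAVER1 points drop to the bottom of the axis across the shaded MTAP and TRAF3 runs and return for KLHL9, CAAP1, RCOR1 and EIF5, and they stand above both lines across the BCL2 and BCL2L11 runs.

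The sequences before the start sites of 4 of these genes are shown because each gene was near 0 reads in some of the lines and well detected in the rest: TRAF3, CDC42BPB and MTAP, which were near 0 in MAVER1, and IMPACT, which was near 0 in JEKO1 and JVM2. Each is the 250 bases before the RefSeq start in GRCh38.p14, written 5′ to 3′ on the strand of the gene, with CG dinucleotides in capitals.
TRAF3, chr14:102777199-102777448, plus strand: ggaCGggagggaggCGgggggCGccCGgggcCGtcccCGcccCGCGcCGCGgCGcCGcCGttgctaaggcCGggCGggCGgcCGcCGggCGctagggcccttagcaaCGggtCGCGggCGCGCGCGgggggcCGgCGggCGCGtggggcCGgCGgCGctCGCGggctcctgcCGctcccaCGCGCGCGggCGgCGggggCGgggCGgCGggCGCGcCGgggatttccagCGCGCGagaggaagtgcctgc
CDC42BPB, chr14:103057550-103057799, minus strand: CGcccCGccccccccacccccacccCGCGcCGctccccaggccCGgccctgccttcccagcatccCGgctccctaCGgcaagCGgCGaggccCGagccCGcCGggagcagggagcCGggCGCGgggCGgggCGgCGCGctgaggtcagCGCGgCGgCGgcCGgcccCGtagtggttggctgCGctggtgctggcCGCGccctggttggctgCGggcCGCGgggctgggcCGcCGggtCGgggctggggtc
MTAP, chr9:21802386-21802635, plus strand: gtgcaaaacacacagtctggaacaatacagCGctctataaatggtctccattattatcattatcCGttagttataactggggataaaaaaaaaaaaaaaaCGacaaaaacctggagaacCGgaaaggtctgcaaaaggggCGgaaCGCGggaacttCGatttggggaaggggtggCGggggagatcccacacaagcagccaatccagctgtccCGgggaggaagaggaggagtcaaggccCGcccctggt
IMPACT, chr18:24426420-24426669, plus strand: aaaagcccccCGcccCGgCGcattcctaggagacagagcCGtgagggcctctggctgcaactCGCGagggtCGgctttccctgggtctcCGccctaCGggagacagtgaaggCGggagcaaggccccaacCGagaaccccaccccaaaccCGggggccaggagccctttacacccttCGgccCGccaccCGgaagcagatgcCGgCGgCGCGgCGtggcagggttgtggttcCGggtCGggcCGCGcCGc
The TRAF3 window held 51 CG dinucleotides, a number reached by 0.103% of the 27305 promoters of the same length in the RefSeq table. CDC42BPB held 35 (reached by 5.64%), IMPACT 25 (21.3%) and MTAP 11 (50.0%). Across the MAVER1 genes with a promoter in the table, the median was 20 CG dinucleotides for 375 higher genes and 17 for 458 lower genes, against 20 for 11888 tested genes. At least 10 were found in 73.3% of the higher, 72.7% of the lower and 80.9% of the tested genes. These are counts of letters in the reference and carry no information on methylation in the lines.

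The other lower genes with the largest Ctrl gaps came from separate places in the genome. APP, the amyloid precursor protein, had 5, 7, 10 and 8 reads in MAVER1 against 134 to 188 CPM in JEKO1 and 290 to 346 CPM in JVM2. BEX3, a small protein that binds the p75 neurotrophin receptor, had 4 reads over the 4 MAVER1 libraries. MCCC1 encodes the biotin-carrying subunit of the carboxylase for leucine breakdown, and it had 5, 2, 5 and 2 reads in MAVER1, 29.1 to 39.1 CPM in JEKO1 and 75.8 to 81.6 CPM in JVM2. SCRN1, KLHL29, SAMD12 and CPXM1 had 24, 7, 2 and 18 reads in the 4 MAVER1 libraries together. NLRP2, a NOD-like receptor, was the least depleted of the 12, at 0.475 to 0.841 CPM in MAVER1 against 66.1 to 77.9 CPM in JEKO1 and 76.1 to 92.2 CPM in JVM2.

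The higher genes with the largest Ctrl gaps were near 0 in JEKO1 and JVM2 and came from unrelated families. IMPACT, a regulator that dampens the amino acid sensor GCN2, was at 19.8, 18.8, 19.5 and 15.96 CPM in MAVER1, at 0 reads in JEKO1 and at 3 reads in all 4 JVM2 libraries. GPAT2, a mitochondrial glycerol-phosphate acyltransferase that has a related pseudogene able to share its reads, was at 106, 87.8, 92.6 and 72.1 CPM in MAVER1 and at or below 0.188 CPM elsewhere. PKP2 encodes plakophilin 2, a desmosome component, and reached 77.0 to 105 CPM in MAVER1 against 0.311 to 0.609 CPM in JEKO1 and 0.0547 to 0.142 CPM in JVM2. L1CAM, a neural cell adhesion molecule, was at 81.9, 65.1, 54.9 and 76.7 CPM in MAVER1 and at no more than 0.793 CPM in the other lines. GPC6, a glypican, had 1442 reads in MAVER1 and none in JEKO1 or JVM2, which makes it at least 529-fold higher against a floor of 3 reads over the libraries of JEKO1.

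Not all of these levels were steady across treatments in MAVER1. SLC5A5, the sodium iodide symporter, was at 29.7 CPM in Ctrl and 28.7 CPM in Ibru but at 14.1 CPM in Irono and 9.42 CPM in Irono+Ibru. NLRP7, a NOD-like receptor, went from 76.8 and 81.5 CPM in Ctrl and Ibru to 11.1 and 26.4 CPM in Irono and Irono+Ibru. CUX2, a homeobox factor, had the opposite order, with 39.4 and 34.2 CPM without ironomycin and 71.2 and 63.5 CPM with it. IGFBP2, which binds insulin-like growth factors, was at 150, 84.1, 141 and 147 CPM in MAVER1, while JEKO1 reached 1.17 and 3.95 CPM in its ibrutinib libraries. CLEC7A, the β-glucan receptor dectin-1, ranged from 6.40 to 12.04 CPM in MAVER1 and had at most 1 read in any other library.

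**Figure D3:**
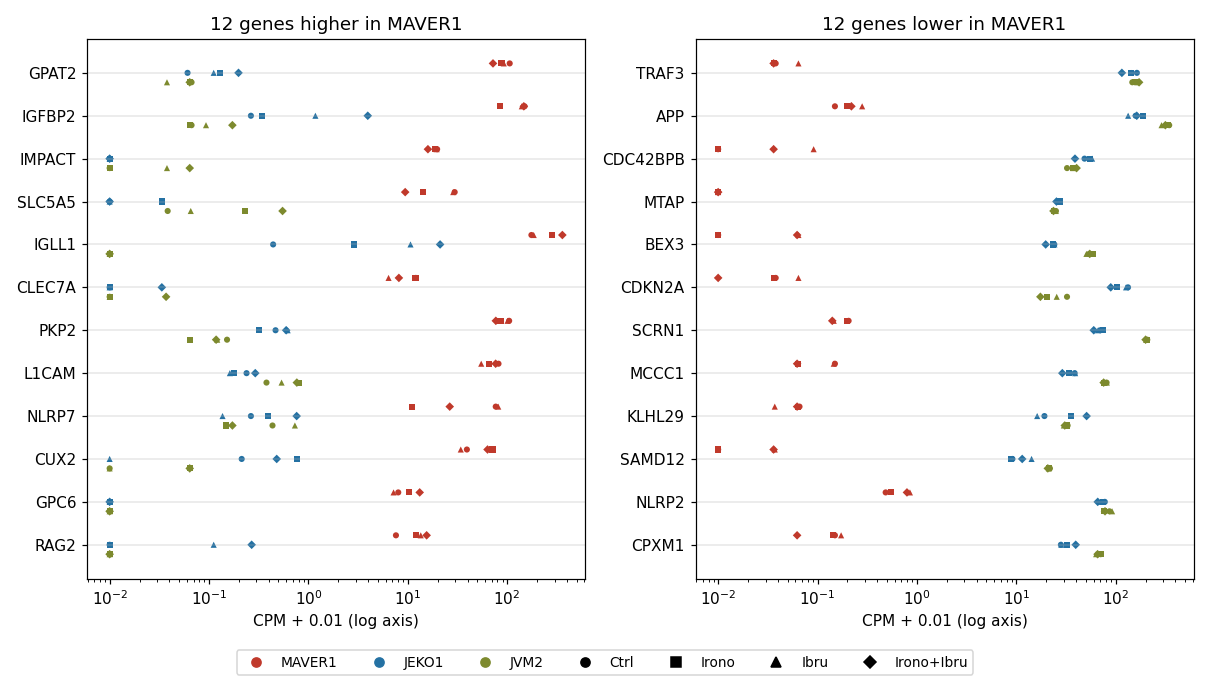
CPM plus 0.01 (log axis) in each of the 12 libraries for the 12 higher (left) and 12 lower (right) protein-coding genes with the largest gap in the Ctrl libraries; colour gives the line and symbol the treatment. The MAVER1 points form a group apart from JEKO1 and JVM2 for every gene, and treatments spread less than lines except for genes such as IGLL1 and IGFBP2 in JEKO1.

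MAVER1 also expressed genes of early B-cell development. IGLL1, the λ5 part of the surrogate light chain, was at 176, 281, 185 and 360 CPM in MAVER1, at 0.432, 2.89, 10.7 and 21.2 CPM in JEKO1, and had 0 reads in JVM2. RAG2, a subunit of the V(D)J recombinase, was at 7.5997, 12.2, 13.5 and 15.5 CPM in MAVER1 and at or below 0.259 CPM elsewhere. After these values were seen, 3 partners of the same process were looked up. RAG1, the catalytic subunit, was at 4.19, 1.65, 19.4 and 3.92 CPM in MAVER1 and at 2.49, 1.44, 11.4 and 5.55 CPM in JEKO1, so the lines overlapped (edgeR adjusted p = 0.235 against JEKO1). VPREB1, the other part of the surrogate light chain, was also at similar levels in MAVER1 (0.374 to 6.92 CPM) and JEKO1 (1.005 to 7.43 CPM). DNTT, which adds nucleotides at V(D)J junctions, was at 0.503 and 0.271 CPM in MAVER1 without ironomycin and at 4.64 and 4.16 CPM with it. Of these genes only IGLL1 and RAG2 met the rule.

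Immunoglobulin transcripts set the MAVER1 clone apart. The λ variable gene IGLV3-1 ranged from 8393 to 9907 CPM in MAVER1 and made up 99.8% of its IGLV signal, whereas it did not exceed 0.457 CPM in JEKO1 or 0.255 CPM in JVM2. In JVM2 the leading λ gene was IGLV2-14 (1248 to 3377 CPM), and in JEKO1 the κ gene IGKV3-20 (1576 to 2874 CPM), both at or below 0.109 CPM in MAVER1. No heavy chain variable gene was abundant in MAVER1, where all IGHV genes summed to 33.0 CPM, or in JVM2, where they summed to 4.98 CPM. The leading member in MAVER1, IGHV5-78 (23.6 to 31.9 CPM), was at a like level in JEKO1 (23.5 to 29.8 CPM). In JEKO1, by comparison, IGHV2-70D reached 935 to 1398 CPM and had 0 reads in MAVER1. Variable genes resemble each other and carry somatic mutations, so reads may have been assigned to a relative or lost.

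Among constant genes, IGHM stood at 11531 to 14253 CPM in MAVER1, above JEKO1 (3765 to 5019 CPM) and above JVM2 (2965 to 9388 CPM), without meeting the rule. IGHA1, the IgA1 constant gene, was at 586, 797, 495 and 870 CPM in MAVER1, 26.2, 27.9, 11.01 and 17.5 CPM in JEKO1 and no more than 0.113 CPM in JVM2. Its near-identical relative IGHA2 was at 10.8 to 63.7 CPM in MAVER1, and reads may be split between the pair. IGLC3, a λ constant gene with similar relatives, was at 2312, 2303, 2107 and 1872 CPM in MAVER1, against 77.8 to 135 CPM in JEKO1 and 136 to 312 CPM in JVM2. IGKC was listed at 0 or 1 read in every library, including JEKO1 with its abundant IGKV3-20, and IGLC1 at 0, so a 0 for a constant gene cannot be read as absence. IGLL5, whose exons lie beside the λ constant genes, had 1 read in MAVER1 and 50.6 to 77.0 CPM in JEKO1. Of 18 tested genes in this list, 4 were higher and 2 lower by the rule, against 3.64% and 3.94% of all tested genes. The median log2 difference was -0.59 from JEKO1 and 3.98 from JVM2, against -0.02 and -0.0003 over all genes tested.

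In the BCL2 family, BCL2 and its BH3-only opponents BCL2L11 and BIK were the 3 higher genes of 19 tested, and the BH3-only gene BID was the 1 lower gene. Of all tested genes 3.64% were higher and 3.94% lower, the shares to set beside the list counts below. The list median was a log2 difference of 0.37 from JEKO1 and -0.23 from JVM2. BCL2, the anti-apoptotic protein targeted by venetoclax, was at 593, 1117, 583 and 1183 CPM in MAVER1, at 99.9, 141, 76.3 and 136 CPM in JEKO1 and at 139, 169, 139 and 194 CPM in JVM2. Every MAVER1 library lay above every other library, with log2 fold changes of 2.91 ± 0.13 (SE) against JEKO1 and 2.37 ± 0.13 against JVM2 (edgeR adjusted p = 1.2e-08 and 2.6e-08). BCL2L11 encodes BIM, a BH3-only protein that binds BCL2 and activates BAX and BAK. It was at 225, 284, 259 and 343 CPM in MAVER1, at 0.305, 0.813, 0.203 and 1.67 CPM in JEKO1 and at 9.82, 6.92, 7.30 and 4.99 CPM in JVM2. BIK, another BH3-only member, was at 10.6 to 22.7 CPM in MAVER1 and below 1.81 CPM in the other lines. BID, which links death receptors to mitochondria, was at 28.7, 19.9, 22.96 and 16.6 CPM in MAVER1 and at 41.6 to 70.6 CPM in JEKO1 and JVM2.

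Both BCL2 and BCL2L11 had neighbours that were also higher in MAVER1 than in both other lines. On chromosome 18, KDSR (a sphingolipid synthesis enzyme), its divergent transcript KDSR-DT and VPS4B (an ESCRT ATPase) followed BCL2. VPS4B was at 287 to 319 CPM in MAVER1 and 45.8 to 54.99 CPM in the other lines, and KDSR at 107 to 141 CPM against 24.0 to 54.4 CPM. PHLPP1, the tested gene before BCL2, lay between the other lines, at 13.3 CPM in MAVER1 Ctrl against 25.3 CPM in JEKO1 and 2.72 CPM in JVM2. On chromosome 2, ACOXL, ACOXL-AS1 and the long non-coding host gene MIR4435-2HG flanked BCL2L11. ACOXL was at 8.52 to 9.72 CPM in MAVER1 and at or below 0.454 CPM elsewhere, and MIR4435-2HG at 16.7 to 20.7 CPM against at most 2.35 CPM. BUB1, just before this run, did not meet the rule, at 283 CPM in MAVER1 Ctrl against 115 and 167 CPM in JEKO1 and JVM2 Ctrl.

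For the cell cycle, the list of D cyclins, CDKs, RB and their partners held 25 tested genes, of which 1 (CCNE2) was higher and 4 (CCND2, CDKN2A, CDKN2B and MTAP, the last listed as their neighbour) lower in MAVER1. The shares of all tested genes were 3.64% and 3.94%. CCND1, the cyclin D1 gene, was at 4299, 4535, 4654 and 4787 CPM in MAVER1, at 3214, 2336, 3545 and 2169 CPM in JEKO1 and at 217 to 320 CPM in JVM2. It was higher in MAVER1 than in both lines under each treatment, but the distance to JEKO1 (log2 0.74 ± 0.14 SE, edgeR adjusted p = 0.00065) was below the size required. CCND2, cyclin D2, was at 0.0543 to 0.235 CPM in MAVER1 and 0.228 to 0.752 CPM in JEKO1 against 241 to 268 CPM in JVM2, so both MAVER1 and JEKO1 were low. CCNE2, cyclin E2, was at 15.5 to 21.2 CPM in MAVER1, above JVM2 (4.92 to 7.22 CPM) and JEKO1 (1.20 to 2.03 CPM). RB1 was lower in MAVER1 (64.6 to 70.8 CPM) than in JEKO1 (131 to 216 CPM) and JVM2 (106 to 132 CPM), with a log2 difference of -0.80 from JVM2 that fell short of the rule.

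ATM, the kinase that signals DNA breaks, was at 33.7, 51.3, 36.7 and 67.0 CPM in MAVER1, 127 to 186 CPM in JEKO1 and 63.7 to 83.3 CPM in JVM2. ATM was the lowest in MAVER1 under each treatment, yet its log2 difference from JVM2 was -0.67 ± 0.10 (SE, edgeR adjusted p = 0.00015), below the required size. CHEK2, a kinase that acts downstream of ATM, was at 58.7, 46.4, 64.6 and 38.0 CPM in MAVER1 and at 16.8 to 25.2 CPM in all other libraries. It was the only 1 of 20 tested checkpoint genes that met the rule upward, as 3.64% of all tested genes did. None met it downward, and CHEK2 missed the gap when library totals replaced TMM scaling.

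Within the BCR signalosome, 2 of 32 tested genes were higher (VAV3 and NFATC2) and 4 lower (FYN, PRKCB and FGR among them) in MAVER1. Over all tested genes these shares were 3.64% and 3.94%. PRKCB, a protein kinase C that carries BCR signals to NF-κB, was at 79.4, 39.5, 110 and 33.6 CPM in MAVER1 against 192 to 383 CPM in JEKO1 and 310 to 329 CPM in JVM2. It was lower in every MAVER1 library than in any JEKO1 or JVM2 library, with log2 fold changes of -2.23 against JEKO1 and -2.44 against JVM2. The Src-family kinases FYN (0.279 to 0.968 CPM) and FGR (0.680 to 5.31 CPM) were also low in MAVER1. JEKO1 had 6.61 to 20.9 CPM of FYN and 8.23 to 26.5 CPM of FGR, itself far below JVM2 (211 to 247 and 208 to 216 CPM). BTK itself, the target of ibrutinib, did not differ from JEKO1 (223, 194, 191 and 189 CPM in MAVER1 against 171 to 213 CPM, edgeR adjusted p = 0.58) and was 0.74 log2 units above JVM2. VAV3, a guanine nucleotide exchange factor, was at 17.7 to 22.7 CPM in MAVER1 and at or below 3.36 CPM elsewhere. NFATC2, a transcription factor driven by calcium, was at 83.5 to 105 CPM against 26.2 to 38.1 CPM in JEKO1 and 8.77 to 9.96 CPM in JVM2.

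The inhibitory receptor list had 2 higher and 1 lower of 21 tested genes, against 3.64% and 3.94% of all tested genes. LAIR1, a collagen receptor that recruits phosphatases, was at 195, 240, 208 and 261 CPM in MAVER1, at 1.37 to 4.23 CPM in JEKO1 and at 1.22 to 2.78 CPM in JVM2. CD5, a co-receptor that marks MCL, was at 45.5, 22.8, 31.0 and 16.4 CPM in MAVER1, 17.2, 7.25, 6.39 and 3.24 CPM in JEKO1 and near 0 in JVM2. LILRB1 was low, at 0.733 to 1.37 CPM against 4.26 to 10.3 CPM in JEKO1 and 41.7 to 45.5 CPM in JVM2. PTPN6, the phosphatase SHP-1, was at 127, 47.1, 54.1 and 22.7 CPM in MAVER1, 306, 91.1, 68.3 and 12.5 CPM in JEKO1 and 388 to 740 CPM in JVM2. It was lowest in MAVER1 except in Irono+Ibru, where JEKO1 was lower.

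For NF-κB and TNF-family receptors, 1 of 31 tested genes was higher (LTB) and 2 lower (TRAF3 and CD27), against 3.64% and 3.94% of all tested genes. LTB, lymphotoxin β, was at 31.7 and 45.6 CPM in the MAVER1 libraries without ironomycin and at 4.24 and 7.17 CPM in those with it, against at most 0.508 CPM in JEKO1 and 1.86 CPM in JVM2. CD27, a memory B-cell receptor, was at 0.320 to 2.23 CPM in MAVER1 and at 9.93 to 40.6 CPM in the other lines. NFKB1 stood between JEKO1 and JVM2 in MAVER1 (131 to 178 CPM), and RELA differed from JVM2 by -0.01 log2 units (edgeR adjusted p = 0.94).

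Among plasma cell markers and B-cell transcription factors, 1 of 10 and 2 of 34 tested genes were higher, where 3.64% of all tested genes were. CD38, an ectoenzyme of activated and plasma cells, was at 89.4, 121, 147 and 140 CPM in MAVER1 and at 5.91 to 11.9 CPM in the other lines (log2 4.13 ± 0.18 and 3.64 ± 0.17, SE, against JEKO1 and JVM2). The other plasma cell markers went both ways, as SDC1, PRDM1, IRF4 and SLAMF7 were higher in JVM2 than in MAVER1, whereas MZB1, JCHAIN and DERL3 were above both lines in MAVER1 under each treatment without meeting the rule. DERL3, part of the degradation machinery of the endoplasmic reticulum, was at 42.8, 134, 47.7 and 193 CPM in MAVER1, 19.1, 63.2, 20.2 and 103 CPM in JEKO1 and 14.7 to 27.1 CPM in JVM2. BCL6, the germinal center repressor, was at 18.6, 7.50, 17.6 and 6.33 CPM in MAVER1, 1.62 to 2.69 CPM in JEKO1 and at most 0.081 CPM in JVM2. KLF2, which controls lymphocyte trafficking, was at 66.5, 68.0, 67.8 and 44.1 CPM in MAVER1 and at 8.11 to 24.8 CPM elsewhere. BCL6 and KLF2 were the 2 higher genes among 34 tested transcription factors of the list, none of which was lower.

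Antigen presentation gave 1 gene in each direction for class II (of 19) and 1 lower gene for class I (of 19). Over all tested genes, 3.64% were higher and 3.94% lower. HLA-DQB1 was at 443, 491, 415 and 504 CPM in MAVER1, 159 to 211 CPM in JVM2 and 17.6 to 28.9 CPM in JEKO1; reads at this variable locus also depend on how the allele of each line maps. CD86, a costimulatory ligand, was at 6.59, 0.694, 2.04 and 0.340 CPM in MAVER1, 39.4, 16.9, 11.8 and 5.97 CPM in JEKO1 and 193 to 217 CPM in JVM2. ERAP2, an aminopeptidase that trims peptides for class I, was at 12.9 to 17.9 CPM in MAVER1 against 34.4 to 53.4 CPM in JEKO1 and 114 to 125 CPM in JVM2.

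Genes of iron handling and ferroptosis, the pathways addressed by ironomycin, were examined next. Of 33 tested iron genes 1 was higher (TMPRSS6) and 1 lower (CYBRD1), and of 26 ferroptosis genes 2 were lower (GCH1 and MBOAT2), where 3.64% of all tested genes were higher and 3.94% lower. MBOAT2, a phospholipid acyltransferase that remodels membrane lipids, was at 0.0523 to 0.251 CPM in MAVER1, 33.1 to 58.2 CPM in JEKO1 and 15.1 to 23.1 CPM in JVM2. GCH1, the first enzyme of tetrahydrobiopterin synthesis, was at 6.17 to 7.12 CPM in MAVER1, 16.9 to 19.5 CPM in JEKO1 and 52.1 to 58.3 CPM in JVM2. CYBRD1, a ferric reductase, was at or below 0.0838 CPM in MAVER1 and below 0.559 CPM in JEKO1 against 25.7 to 31.3 CPM in JVM2. TMPRSS6 was low in all lines, at 0.671 to 0.968 CPM in MAVER1, 0.0508 to 0.306 CPM in JEKO1 and 0.164 to 0.270 CPM in JVM2. TMPRSS6 also missed the gap when library totals replaced TMM scaling. FTH1, the ferritin heavy chain that stores iron, was at 115, 191, 112 and 191 CPM in MAVER1, below JEKO1 (227, 316, 193 and 264 CPM) and JVM2 (579, 843, 565 and 931 CPM) under each treatment, and the log2 difference of -0.74 from JEKO1 was below the required size. TFRC, the transferrin receptor, lay between the other lines, at 290, 537, 267 and 398 CPM in MAVER1. DGAT2, which makes triglycerides for lipid droplets, was the 1 gene of 20 in the lipid list that met the rule, at 200, 96.9, 183 and 73.4 CPM in MAVER1 and 13.7 to 28.9 CPM in the other lines.

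Of 42 cancer-testis genes, which are normally restricted to the germ line, only 15 passed the filter on low counts. Of these, 4 were lower and none higher, against 3.94% and 3.64% of all tested genes. However, genes near 0 in MAVER1 could pass only through another line. MAGEA3 and MAGEA6, near-identical genes whose reads may be split, had 0 reads in MAVER1 against 39.0 to 44.4 and 15.9 to 18.9 CPM in JVM2, and were at 0.526 to 0.987 and 1.89 to 3.36 CPM in JEKO1. CTAG2 had 1 read in MAVER1, 91.2 to 157 CPM in JEKO1 and 0.137 to 0.250 CPM in JVM2, and SSX1 was at 0.0801 to 0.196 CPM in MAVER1, 2.36 to 3.73 CPM in JEKO1 and 5.37 to 6.41 CPM in JVM2. In the NOTCH list of 23, the target gene HEY2 (18.2 to 23.3 CPM in MAVER1) and the NOTCH glycosyltransferase MFNG (292 to 469 CPM) were higher. The ligands JAG1 (0.507 to 0.760 CPM) and DLL1 (at most 0.0534 CPM) were lower than in both other lines. JAG1 was at 4.09 to 8.77 CPM in JEKO1 and 31.2 to 35.8 CPM in JVM2. DLL1 was at 0.127 to 0.229 CPM in JEKO1 against 17.1 to 19.4 CPM in JVM2, so both MAVER1 and JEKO1 were low. MFNG missed the gap with DESeq2 size factors. Of 36 interferon-stimulated genes, IFITM1, which blocks viral entry, was the only member that met the rule, at 12.1 to 17.9 CPM in MAVER1 against 32.0 to 47.7 CPM in JEKO1 and 195 to 294 CPM in JVM2.

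Markers of epithelium and stroma gave 3 higher genes among the 5 that could be tested of 13, where 3.64% of all tested genes were higher. EPCAM was at 7.88 to 14.05 CPM in MAVER1, KRT18 at 2.93 to 8.45 CPM and COL1A1 at 22.1 to 32.6 CPM. The summed level of the 13 markers ranged from 33.6 to 56.4 CPM in MAVER1, 4.49 to 6.94 CPM in JEKO1 and 11.2 to 14.7 CPM in JVM2, while COL3A1, DCN, LUM, CDH5, VWF and KDR had 0 reads in MAVER1 and COL1A2 did not exceed 0.056 CPM. The hemoglobin genes HBA1 and HBA2, which share sequence, were lower in MAVER1 at 0 to 0.224 CPM, with no more than 1.37 CPM in any library.

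A further list held 34 genes taken from the other assays of the study (transcripts or proteins). In these libraries 2 of them were higher (BCL2 and CHEK2) and 2 lower (CCND2 among them) in MAVER1 under every treatment. The shares of all tested genes were 3.64% higher and 3.94% lower. Against the mean of the other lines 5 were called higher, 7 lower and 22 were not called. XBP1, a transcription factor of secretory cells, was at 446 to 535 CPM in MAVER1, 37.2 to 124 CPM in JEKO1 and 239 to 287 CPM in JVM2, above both lines under each treatment but with gaps of 0.64 to 1.16 log2 units that missed the rule. BCL2L1 (109 to 130 CPM) was higher than in both lines, with a log2 difference of 0.49 from JVM2 that was below the required size. PARP1 did not differ from either line (edgeR adjusted p = 0.86 against JEKO1 and 0.41 against JVM2), at 852 to 986 CPM in MAVER1.

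**Figure D4:**
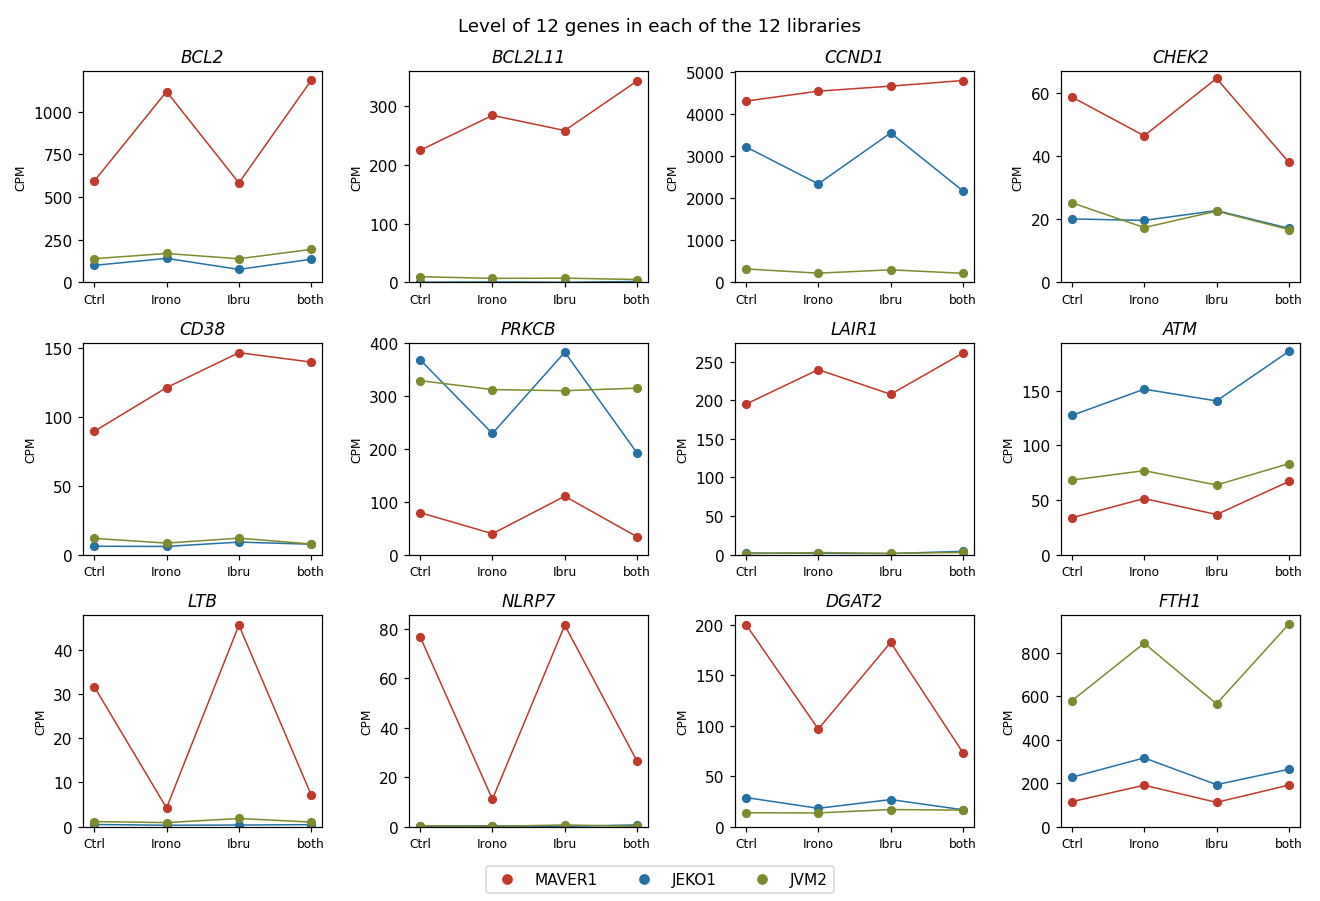
CPM (linear axis from 0) of 12 genes in the 12 libraries, with treatments along the horizontal axis (both stands for Irono+Ibru) and lines joining the libraries of 1 cell line for the eye. BCL2 and BCL2L11 of MAVER1 lie above the other lines throughout, PRKCB below them, and LTB, NLRP7 and DGAT2 of MAVER1 are higher in the libraries without ironomycin than in those with it.

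Whether the distance of MAVER1 from the other lines changed with ironomycin was tested with an interaction term, in which the doses of the lines differed as stated above. It was called for 214 genes, 1.18% of those tested, with 102 where the MAVER1 effect was more positive and 112 where it was more negative. Among the 658 higher genes 10 were called (1.52%) and among the 713 lower genes 11 (1.54%), shares near that of all genes. The count rested on single libraries of MAVER1, since it was 60, 121, 90 and 84 without its Ctrl, Irono, Ibru and Irono+Ibru library and 131 without the Ctrl library of JVM2. LTB had an ironomycin effect of -2.83 log2 units in MAVER1, -0.22 in JEKO1 and -0.66 in JVM2, a difference of -2.39 ± 0.28 (SE, edgeR adjusted p = 0.0023). It was called with any 1 of the 12 libraries left out (adjusted p from 0.0010 to 0.036). NLRP7 had effects of -2.73 in MAVER1, 0.92 in JEKO1 and -2.56 in JVM2, a difference of -1.91 ± 0.37 (SE, adjusted p = 0.019), although its level in JEKO1 and JVM2 never exceeded 0.752 CPM. The NLRP7 call was lost without the Irono library of JVM2 (adjusted p = 0.060) and without the Ctrl, Irono, Ibru or Irono+Ibru library of MAVER1 (adjusted p = 0.13, 0.078, 0.086 and 0.090). PRKCB fell further in MAVER1 than in the mean of the other lines by 0.94 log2 units (edgeR adjusted p = 0.010), below the size of 1 required for a call. The rise of BCL2 with ironomycin, 0.86 log2 units in MAVER1 against 0.55 in JEKO1 and 0.28 in JVM2, was not called different (adjusted p = 0.079). In simulated data, 41 of 100 genes changed by 1 log2 unit and 88 of 100 changed by 2 reached edgeR adjusted p below 0.05 in this test. So did 10 unchanged genes, and differences near 1 log2 unit can be missed.

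By chromosome, the higher genes were most frequent on chromosome 22, where 53 of 451 placed genes (11.8%) met the rule, followed by chromosome 8 with 50 of 514 (9.73%) and chromosome 21 with 15 of 170 (8.82%). Across all placed genes the share was 3.57%. The median log2 difference from the mean of the other lines was 0.61 over the tested genes of chromosome 22 and 0.42 over those of chromosome 8. Lower genes were most frequent on chromosome 13, with 22 of 284 (7.75%, against 4.04% of all placed genes), and the median there was -0.44. MFNG, CHEK2, BIK, IGLL1, TMPRSS6 and IGLC3 are on chromosome 22, which also holds the λ locus, and CCNE2 is on chromosome 8 in a run with INTS8, NDUFAF6 and DPY19L4 among others. On the X chromosome L1CAM stood in a run of 6 higher genes with SRPK3, IDH3G, SSR4, PDZD4 and AVPR2. SSR4, a subunit of the translocon-associated complex, was at 415, 673, 380 and 790 CPM in MAVER1 and at 45.7 to 158 CPM in the other lines. These shares and medians are descriptions, with no test.

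**Figure D5:**
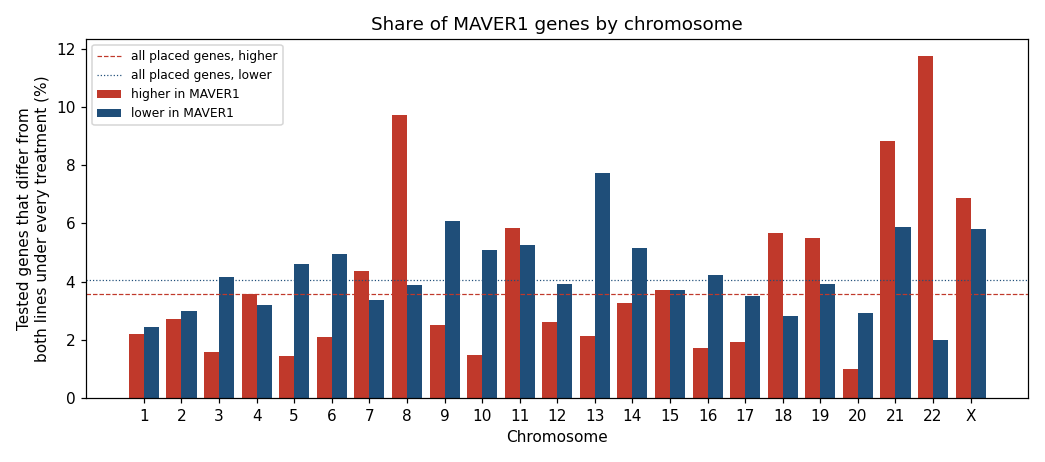
Bars give, for each chromosome, the percentage of placed tested genes that were higher (red) or lower (blue) in MAVER1 than in both lines under every treatment; broken lines give the same shares over all placed genes. The red bars of chromosomes 22, 8 and 21 reach 11.8%, 9.73% and 8.82%, and the tallest blue bar is that of chromosome 13 at 7.75%.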

How the data were processed

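Poly(A) RNA (150 ng input) from 12 cultures was sequenced as stranded paired-end DNBSEQ libraries. The deposited table holds raw read counts for 63677 Ensembl genes, per the labels, and the submitters' processing notes name STAR, DESeq2 and GRCh37; versions, the counting tool and its strand setting were not given in the sources used here. No column was left unused (0). Of the genes, 52181 were paired with a symbol from the reference tables.

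Counts were fitted in R 4.3.3 with edgeR 4.0.16 (TMM scaling, filterByExpr by line, quasi-likelihood F-test) with line and treatment as terms, leaving 6 residual degrees of freedom. P-values were two-sided and adjusted by Benjamini-Hochberg over the 18084 genes tested. Per-treatment gaps used log2 CPM with a prior count of 2 and have 1 library per line, so no test. The ironomycin interaction added a line-specific ironomycin term. Treatment labels pair the libraries across lines: deviations of same-treatment libraries from their line means correlated at 0.12 to 0.60 (12 pairs). In simulated data with the real library sizes, 100 of 100 genes changed by 2 log2 units reached adjusted p below 0.05 against both lines. No minimum size was required there, and 96 met the full rule. At 1 log2 unit 87 reached this level and 1 met the full rule, and of the unchanged genes 1 reached this level. The simulated lines were alike at all other genes, whereas 8291 genes were called between JEKO1 and JVM2, so these rates may not hold here.

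Intervals on pooled ratios are exact (95%) and cover counting error only, and a pooled 0 was replaced by a floor of 3 reads. Named genes are the 12 protein-coding genes per direction with the largest Ctrl gap and at least 5 CPM where high, up to 4 members per direction of each of 24 lists, the 34 genes the study measured, leading immunoglobulin variable genes, and neighbours in runs. The members and lists were chosen with earlier results of these data known. RAG1, VPREB1 and DNTT, and which runs are given by name, were chosen after their values were seen. CCL3, CCL4 and TRAC were not matched. Gene order and promoter sequences come from RefSeq (GRCh38.p14), which differs from the build of the counts. Y-linked genes and XIST are counted but not named. Alternatives covered scaling, filters, limma 3.58.1, DESeq2 1.42.0, thresholds and each library left out.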

Additional observations from a re-analysis of the deposited data

Results flagged for a closer look

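In 7 of 81 genes examined, 1 of the 4 MAVER1 libraries lay far from the other 3 by Dixon's criterion at the 95% level. Among replicates of 1 condition chance gives this in about 5% of groups, but these 4 libraries had 4 treatments. An outlying library and a treatment difference cannot be told apart here. The Irono library was low for IGFBP2, at a log2 CPM of 6.39 (84.1 CPM against 141 to 150 CPM). The Irono+Ibru library was low for KLF2, at 5.47 (44.1 CPM against 66.5 to 68.0 CPM), and high for COL1A1, at 5.03 (32.6 CPM against 22.1 to 22.5 CPM). The other 4 cases were differences of a single read between nearly empty libraries: TRAF3 at -3.23 in Ibru (2 reads against 1 in each of the others), KLHL29 at -3.65 in Ibru, CTAG2 at -3.66 in Irono and IGLL5 at -3.63 in Ctrl.

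For 2 of the higher genes given by name (10 of all 658 higher genes were called), the ironomycin effect in MAVER1 differed from the mean effect in JEKO1 and JVM2 by the interaction test. The difference was -2.39 log2 units for LTB (edgeR adjusted p = 0.0023) and -1.91 for NLRP7 (adjusted p = 0.019). LTB fell from 31.7 and 45.6 CPM without ironomycin to 4.24 and 7.17 CPM with it in MAVER1, where NLRP7 fell from 76.8 and 81.5 CPM to 11.1 and 26.4 CPM. The fitted NLRP7 effect was -2.73 log2 units in MAVER1 and a like -2.56 in JVM2, given the same ironomycin dose. In JEKO1 it was 0.92, from levels of at most 0.752 CPM. The NLRP7 call was also lost when any single MAVER1 library was left out. JEKO1 received less ironomycin than MAVER1 and JVM2, and ibrutinib doses differed between all lines. Dose and line cannot be told apart in this difference.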

How the results depend on the processing

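Requiring a log2 fold change of 2 in place of 1 changed most counts of MAVER1 genes by more than 1.5 times: 2780 genes were then called against the mean of the other lines, 2910 against JEKO1 and 4125 against JVM2, 352 genes were higher under every treatment, 966 of those set apart in the Ctrl libraries were called in the treated ones, and the ironomycin interaction was called for 54. With 1 library left out at a time, the counts ranged from 5565 to 5649 against the mean, 6114 to 6369 against JEKO1 and 7218 to 7426 against JVM2, 707 to 745 for higher and 761 to 803 for lower genes under every treatment, and 60 to 244 for the interaction. The gap was then required in the 3 treatments that still had every line, and the filter followed the smaller group. Library totals in place of TMM scaling moved the median of all genes by -0.08 log2 units, gave 577 higher and 785 lower genes (575 and 692 of them shared with the TMM set), and took CDKN2B, CHEK2 and TMPRSS6 below the required gap. MFNG missed the gap with DESeq2 size factors, with no filter and without the Ibru library of JVM2, and HBA1 was not tested with at least 10 reads required or without the Ctrl libraries. Under a prior count of 5, 625 of the higher and 585 of the lower genes were shared with the set at 2.

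The treatment labels pair the libraries of the lines and entered the model as a block. With no replicate block, 5395 genes were called against the mean, 6001 against JEKO1 and 7080 against JVM2, with 656 higher and 713 lower under every treatment. With the label as a random block in limma, the counts were 6003, 6153, 7163, 658 and 714 in the same order. DESeq2 gave 5589, with 656 higher and 714 lower genes. For 110 genes of the lists and runs, the sign of the difference from the mean of the other lines and its side of adjusted p = 0.05 held under every scaling, filter, block, tool and left-out library that could test them, except for 3 genes that differed little. PARP1 turned to -0.0412 log2 units with library totals and ranged from -0.0085 to 0.0645 with 1 library left out. NFKB1 turned to 0.000433 with the random block, 0.000186 without the Irono and 0.0228 without the Irono+Ibru libraries, and ranged from -0.0832 to 0.0781 with 1 left out. RELA passed with library totals (-0.18, edgeR adjusted p = 0.023). For genes chosen by the every-treatment rule, a stable sign and call against the mean was largely set by that choice.

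These counts describe 3 cell lines with 1 library per treatment, so culture and line cannot be told apart. Ibrutinib doses differ between all lines, ironomycin doses differ between JEKO1 and the other lines, and serum differs between MAVER1 and JVM2. DNA was not analysed here. Reads of immunoglobulin variable and constant genes, HLA genes and near-identical copies depend on mapping to a reference that differs from the cells.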

Other observations

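Further runs of neighbours were noticed after their values were seen and are given as gaps in the Ctrl libraries (log2 CPM, MAVER1 beyond the nearer of the other lines). On chromosome 1, RAVER2, JAK1 (the cytokine receptor kinase), AK4 and DNAJC6 were all higher in MAVER1, with gaps of 3.43, 1.40, 3.37 and 2.57 in that order. On chromosome 11, LTO1, FADD (the death receptor adaptor) and PPFIA1 were higher, with gaps of 2.59, 2.46 and 1.79 in that order. On chromosome 19 the myeloid receptor CD33 was lower together with SIGLEC17P and SIGLEC22P, with gaps of -4.35, -3.74 and -2.28 in that order.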
